A study of Mus musculus with 6 samples.

Results

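The H2 genes encode the major histocompatibility complex (MHC) of the mouse. They were taken as every protein coding row of the deposited expression table whose gene name starts with H2-, which gave 36 of 36976 genes and of 22380 protein coding ones. All 36 lie on chromosome 17 in the table. By name, 2 are classical class I genes (H2-K1 and H2-D1), 23 are nonclassical class I genes (6 of the Q region, 5 of the T region and 12 of the M region) and 9 are class II genes. Another 2, H2-Ke2 and H2-Ke6, carry the name from their place in the complex and encode no MHC molecule. The name H2-Q2 stands on 2 rows, and the row with identifier ENSMUSG00000079507 is given here under its current symbol, H2-Q1.

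RNA-Seq was performed on long-term (LT) stem cells of mice with chronic myelogenous leukaemia (CML), in 3 Gdpd3+/+ and 3 Gdpd3-/- libraries, to learn what the loss of the lysophospholipase D enzyme Gdpd3 does to gene expression in these cells. Both groups carried SCL-tTA and TRE-BCR-ABL1, from transgenic lines that the authors give as C57BL/6 (F5). Withdrawal of doxycycline (20 mg/L in the drinking water) at 5 weeks after birth turned on BCR-ABL1. It was expressed under the regulatory elements of Scl, a gene of blood stem and progenitor cells. The Gdpd3-/- mice had in addition a 5 bp deletion made with Cas9. Cells were sorted 5 weeks after induction from the bone marrow of 2 hind limbs as CD150+CD48-CD135- cells of the Lineage-Sca-1+cKit+ fraction, from 22 males and 12 females for Gdpd3+/+ and from 5 males and 5 females for Gdpd3-/-. How many mice went into each library was not given, and p-values measure the spread between these libraries. The table holds no genotype of the H2 complex itself.

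Class I molecules pair an H2 heavy chain with beta-2-microglobulin (B2m) and show peptides made in the cytosol by the proteasome to CD8+ T cells, and they are found on nearly every nucleated cell. Class II molecules pair an alpha with a beta chain (H2-Aa with H2-Ab1 as I-A, H2-Ea with H2-Eb1 as I-E) and show peptides from endosomes to CD4+ T cells. They are the mark of B cells, dendritic cells and macrophages, and blood progenitors carry them at lower levels. Their peptides are exchanged by H2-DM, which H2-O restrains, and the invariant chain Cd74 guides them to the endosome. Nlrc5 and Ciita are the transactivators of class I and class II, and interferon gamma raises both.

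Values are FPKM, read fragments scaled to gene length and to the size of the library, so that levels of different genes can be compared. Gdpd3 was at 7.30, 3.29 and 2.95 FPKM in Gdpd3+/+ replicates 1, 2 and 3 and at 0.1099, 0.0129 and 0.681 FPKM in Gdpd3-/- replicates 5, 6 and 7, which measures its transcript and not the deletion. Of the markers of the sort, Kit lay between 108 and 136 FPKM and Ly6a (Sca-1) between 342 and 563 FPKM in all libraries, whereas Flt3 (CD135), selected against, went from 9.80 to 11.01 FPKM in Gdpd3+/+ to 36.8 to 46.5 FPKM in Gdpd3-/- (adjusted p = 0.00562). Cd48, selected against as well, was at 39.8 to 44.8 FPKM in Gdpd3+/+ and 51.6 to 92.2 FPKM in Gdpd3-/- (adjusted p = 0.188), and Slamf1 (CD150), selected for, overlapped at 10.1 to 11.7 against 5.41 to 13.2 FPKM. The inferred depth, in arbitrary units, was 4.98 to 6.28 in Gdpd3+/+ and 2.13 to 3.64 in Gdpd3-/-. The 10 skeletal muscle markers summed to 855 to 1273 FPKM in Gdpd3+/+ libraries, to 10993 and 15861 FPKM in Gdpd3-/- replicates 5 and 6 and to 2102 FPKM in replicate 7, and the 7 plasma cell markers to 2079 to 2710 FPKM against 955 to 1770 FPKM. Across the 24689 genes tested, the median log2 fold change of Gdpd3-/- against Gdpd3+/+ was 0.24, and it was 0.06 after a TMM-type scaling of the libraries and -0.01 after quantile normalisation. Over genes with a mean of at least 1 FPKM, the median was 0.14. Each difference below is therefore to be read against a general shift of 0.24 on the log2 scale, or of 0.14 at that level.

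Of the 36 H2 genes, 27 passed the filter on low values (a mean of at least 0.05 FPKM) and 23 had a mean of at least 1 FPKM. H2-DMa rose in Gdpd3-/- cells with an adjusted p under 0.05, and it was the only one of the 27 to do so, beside 1.09% of all genes tested. None was called lower by limma, beside 0.616% of all genes, and at an unadjusted p under 0.05 there were 12 higher (16.5% of all genes) and 1 lower (5.76%). The lowest Gdpd3-/- library lay above the highest Gdpd3+/+ library for 15 of the 27 genes, where 23.5% of all genes did so, and the reverse held for 2, where 8.27% did. Among the 23 with a mean of at least 1 FPKM the counts were 15 and 1, against 28.2% and 10.2% of all genes at that level. These counts depend on the scaling, since 8 of the 27 lay higher after TMM-type scaling (15% of all genes) and 10 after quantile normalisation (13.6%), with 2 lower under each (14.9% and 15.5%). The 8 were H2-K1, H2-DMa, H2-Ab1, H2-Aa, H2-Eb1, H2-Q4, H2-Q7 and H2-T23, of which H2-K1 was not among the 10. For any gene whose groups do not overlap, the exact permutation test gives p = 0.1, the smallest that 3 libraries against 3 allow.

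**Figure D1:**
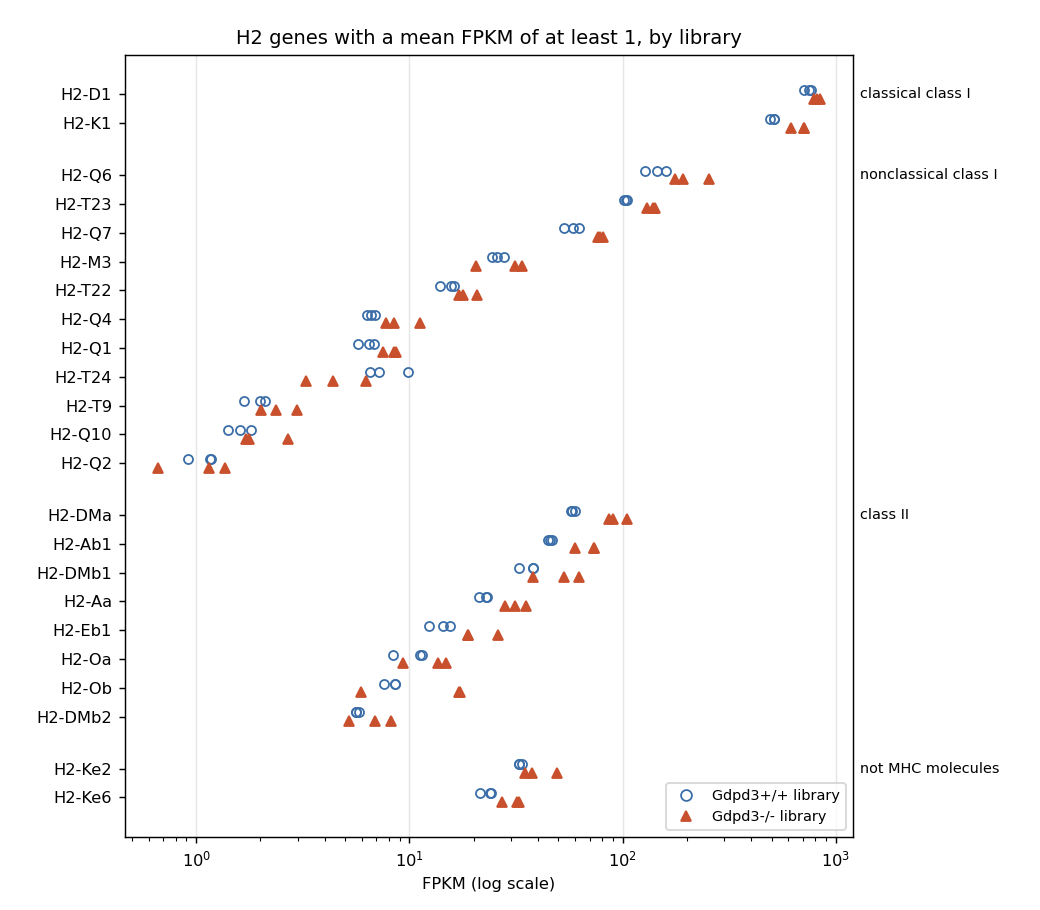
FPKM on a log axis of the 23 H2 genes with a mean of at least 1, in 3 Gdpd3+/+ libraries (open circles) and 3 Gdpd3-/- libraries (triangles), grouped by class. The triangles lie to the right of all circles in 15 genes and to the left of them in H2-T24.

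Summed over a class, class II transcripts were at 201, 200.2 and 202 FPKM in the Gdpd3+/+ libraries and at 307, 298 and 294 FPKM in the Gdpd3-/- libraries, a ratio of means of 1.49. The class II sums thus hardly varied among the Gdpd3+/+ libraries, and all Gdpd3-/- libraries stood well above them. Nonclassical class I summed to 355, 386 and 379 FPKM against 557, 454 and 483 FPKM (ratio 1.33), and classical class I to 1197, 1264 and 1280 FPKM against 1547, 1406 and 1529 FPKM (ratio 1.198). The share of class II in the summed FPKM of the 34 MHC molecules was 10.8 to 11.4% in Gdpd3+/+ and 12.7 to 13.8% in Gdpd3-/-, whereas classical class I held 68.3 to 68.8% and 64.2 to 66.3%. Median log2 fold changes were 0.48 over the 9 class II genes, 0.28 over the 2 classical genes and 0.30 over the 14 nonclassical genes tested, and after TMM-type scaling they were 0.28, 0.075 and 0.13. In bulk RNA, more cells of a kind and more RNA per cell cannot be told apart.

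**Figure D2:**
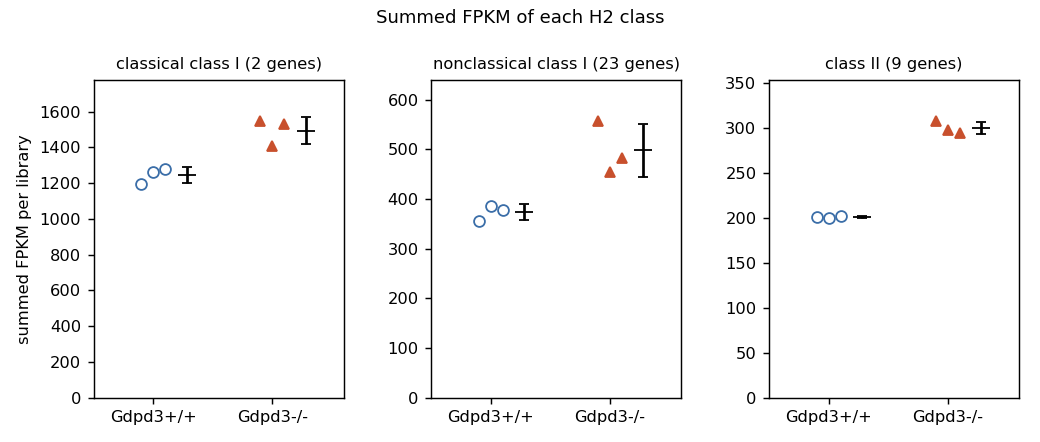
Summed FPKM of the genes of each H2 class in each library (open circles, Gdpd3+/+, triangles, Gdpd3-/-), with the mean and SD of the 3 libraries beside them, each panel on its own axis from 0. The class II sums of the genotypes are 201 ± 1.08 and 299.7 ± 6.88 FPKM (SD, n = 3).

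The classical class I heavy chains were the most abundant H2 transcripts and differed from each other in how far the genotypes stood apart. H2-D1 (mm9 chr17:35399675-35404444, plus strand) was at 708, 752 and 764 FPKM in Gdpd3+/+ and at 841, 788 and 820 FPKM in Gdpd3-/-. H2-K1 (mm9 chr17:34132962-34137278, minus strand) was at 489, 512 and 516 FPKM in Gdpd3+/+ and at 706, 618 and 710 FPKM in Gdpd3-/-. The groups overlapped in neither gene, and they lay close together in H2-D1 and well apart in H2-K1. On the log2 scale the differences were 0.42 (SE 0.10, adjusted p = 0.0882) for H2-K1 and 0.14 (SE 0.10, adjusted p = 0.436) for H2-D1, where TMM-type scaling turned the sign of the latter to -0.07. Without Gdpd3-/- replicates 5 and 6, the libraries with most muscle transcripts, H2-K1 was at 0.49 (adjusted p = 0.0470) and H2-D1 at 0.15 (adjusted p = 0.302), with replicate 7 as the lone Gdpd3-/- library. Within each library, which needs no scaling, H2-K1 stood at 0.691, 0.681 and 0.675 of H2-D1 in Gdpd3+/+ and at 0.839, 0.785 and 0.866 in Gdpd3-/-. The ratio of H2-K1 to H2-D1 was thus higher in every Gdpd3-/- library.

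The start regions of heavy chain genes are shown here because H2-K1 and H2-D1, whose control sequences are known to be alike, stood at unequal differences. RefSeq promoter windows (GRCm38.p6, 250 bases before to 50 after a start) were found for 33 of the 36 H2 genes, with none for H2-Ab1, H2-Q1 and H2-T24. Each window was searched on both strands for GGGATTCCC (the core of enhancer A), TTTCACTT (part of the interferon response element), CTGATTGG (the Y box) and ATTGG (the inverted CCAAT core, which lies inside the Y box). Of 32851 promoter windows, 0.353% held the enhancer A core, 1.601% the interferon element, 4.10% the Y box and 37.4% ATTGG. The first of these was found in H2-K1, H2-D1, H2-Q6 and H2-Q7 alone among the H2 genes. In the stretches below (GRCm38.p6), each read 5′ to 3′ on the gene's strand, capitals mark the enhancer A core, the interferon element and the Y box, which in class I genes is on the opposite strand, and further ATTGG matches are left in lower case.
H2-K1, chr17:34000326-34000463, minus strand: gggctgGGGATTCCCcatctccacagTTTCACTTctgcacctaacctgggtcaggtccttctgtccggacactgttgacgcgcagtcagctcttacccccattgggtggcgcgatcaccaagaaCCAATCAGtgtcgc
H2-D1, chr17:35262918-35263054, plus strand: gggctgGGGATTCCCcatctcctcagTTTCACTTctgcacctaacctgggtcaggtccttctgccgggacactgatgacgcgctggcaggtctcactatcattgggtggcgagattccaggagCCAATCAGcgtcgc
H2-Q7, chr17:35439017-35439152, plus strand: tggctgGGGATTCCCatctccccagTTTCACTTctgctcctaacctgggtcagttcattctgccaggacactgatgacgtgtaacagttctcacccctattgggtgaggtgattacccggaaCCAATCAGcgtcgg
H2-T23, chr17:36032740-36032813, minus strand: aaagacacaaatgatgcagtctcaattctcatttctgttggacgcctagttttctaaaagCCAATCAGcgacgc
Enhancer A, interferon element and Y box stood in the same order in H2-K1, H2-D1 and H2-Q7, while of these 3 only the Y box was found in the H2-T23 window. A match to letters is a description of the window and shows no binding. The interferon element was found for the 2 classical genes and for 7 of the 21 nonclassical genes matched. In the M region it was found for 1 of 12 genes, H2-M3. Of the Q and T region genes matched, H2-T23, H2-Q2 and H2-T9 lacked it.

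Among the Q region genes, which include the Qa-2 family, H2-Q6 and H2-Q7 were the most abundant. H2-Q6 was at 128, 160 and 146 FPKM in Gdpd3+/+ and at 254, 176 and 191 FPKM in Gdpd3-/-, with replicate 5 far above the rest. H2-Q7 was at 53.3, 58.7 and 62.5 FPKM against 76.4, 78.0 and 81.0 FPKM. Neither gene's groups overlapped, and neither passed the test, at 0.51 (SE 0.16, adjusted p = 0.140) and 0.43 (SE 0.10, adjusted p = 0.0764) on the log2 scale. Both share part of their sequence, and 5.99% of the 150-base windows along H2-Q6 transcripts and 9.68% of those along H2-Q7 also occur in other genes, mostly in each other, so their split is less certain than their sum. H2-Q4 (6.34, 6.88 and 6.57 against 11.2, 7.76 and 8.44 FPKM) and H2-Q1 (5.71, 6.85 and 6.50 against 8.69, 7.55 and 8.47 FPKM) lay on the same side with no overlap, at adjusted p of 0.206 and 0.209. H2-Q10, which encodes a secreted class I molecule of the liver, was at 1.42 to 1.80 against 1.72 to 2.70 FPKM, and H2-Q2 at 0.917 to 1.18 against 0.661 to 1.36 FPKM. In these last genes the genotypes overlapped.

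The T region held the H2 gene with the opposite difference. H2-T24 (mm9 chr17:36142640-36157505, minus strand) was at 9.84, 7.20 and 6.53 FPKM in Gdpd3+/+ and at 4.40, 3.26 and 6.27 FPKM in Gdpd3-/-. Its groups did not overlap under any of the 3 scalings, with replicate 7 just under the lowest Gdpd3+/+ library, and it missed the threshold at -0.77 on the log2 scale (SE 0.28, adjusted p = 0.180). Without Gdpd3-/- replicate 7 its adjusted p was 0.0570, and without replicates 5 and 6 it was 0.541. Its neighbour H2-T23 (mm9 chr17:36166718-36169800, minus strand), the Qa-1 heavy chain that engages natural killer cell receptors, was at 105, 102 and 104 FPKM against 143, 139 and 130 FPKM. H2-T23 was thus higher in each Gdpd3-/- library, by 0.41 on the log2 scale (SE 0.08, adjusted p = 0.0655). Its adjusted p was 0.0198 without Gdpd3-/- replicate 7, where 2364 of 24056 genes were called higher. Over genes of a mean of at least 1 FPKM it was 0.0489, where 471 of 15103 were called higher. The ratio of H2-T23 to H2-T24 within a library was 10.6, 14.1 and 15.9 in Gdpd3+/+ and 32.4, 42.7 and 20.8 in Gdpd3-/-. As the genotypes stood apart in opposite directions in H2-T23 and H2-T24, the separation of this ratio adds nothing to them. H2-T22, whose product is bound by gamma-delta T cells, was at 15.7, 13.9 and 16.1 against 20.8, 17.1 and 17.8 FPKM (adjusted p = 0.256). H2-T9, now annotated as Gm7030, overlapped at 1.67 to 2.09 against 2.02 to 2.96 FPKM, and 27.4% of its windows of 150 bases are found in other genes. H2-T3, the thymus leukaemia antigen, was near 0 at 0.214 to 0.462 against 0.0546 to 0.212 FPKM, the other gene whose groups did not overlap in the lower direction.

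Of the 12 M region genes only H2-M3, which presents N-formylated peptides, was expressed at more than 1 FPKM. It was at 27.8, 24.3 and 25.7 FPKM in Gdpd3+/+ and at 31.4, 20.6 and 33.7 FPKM in Gdpd3-/-, where replicate 6 was the lowest and replicate 7 the highest of all 6 libraries. The difference of 0.11 on the log2 scale had a 95% interval from -0.36 to 0.58, and its sign turned under TMM-type scaling (-0.10) and without Gdpd3-/- replicate 7 (-0.03). The other 11, which include the H2-M10 family of vomeronasal neurons, reached at most 0.441 FPKM in any library (H2-M9 in Gdpd3-/- replicate 7). H2-M1 was listed at 0 in all libraries, H2-M10.5 and H2-M10.6 only above 0 in Gdpd3-/- replicate 6 and H2-M10.3 only in Gdpd3+/+ replicate 1, each under 0.02 FPKM. With H2-T3 and H2-Eb2 these are the 13 H2 genes with a mean under 1 FPKM.

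The class II genes that form the peptide-presenting molecules stood at more than 10 FPKM in every library except H2-Eb2, and the 3 others lay above Gdpd3+/+ in all Gdpd3-/- libraries. H2-Ab1 (mm9 chr17:34400154-34406363, plus strand) was at 44.8, 46.6 and 45.5 FPKM in Gdpd3+/+ and at 73.2, 73.6 and 60.1 FPKM in Gdpd3-/-. H2-Aa (mm9 chr17:34406276-34424772, minus strand) was at 22.98, 21.3 and 23.1 FPKM against 31.2, 35.4 and 28.0 FPKM. H2-Eb1 was at 12.3, 14.3 and 15.4 FPKM against 18.8, 18.8 and 26.0 FPKM. None of the 3 had overlapping groups, and the library highest in H2-Eb1, replicate 7, was the lowest of its genotype in H2-Ab1 and H2-Aa. On the log2 scale H2-Ab1 differed by 0.59 (SE 0.11, adjusted p = 0.0563), H2-Aa by 0.48 (SE 0.12, adjusted p = 0.0895) and H2-Eb1 by 0.58 (SE 0.17, adjusted p = 0.119). Without Gdpd3-/- replicate 7 the adjusted p was 0.00932 for H2-Ab1 and 0.0292 for H2-Aa. In that fit 2364 of 24056 genes were called higher, against 270 of 24689 in the main fit. The ends of H2-Ab1 and H2-Aa overlap on opposite strands in the table, and whether the counting used strand was not given. C57BL/6 mice make no I-E because H2-Ea is defective, and H2-Eb2 stood between 0 and 0.615 FPKM.

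The windows before class II genes held neither the enhancer A core nor the interferon element, and ATTGG stood in all 8 that were matched. Of these, 4 held the whole Y box (H2-Oa, H2-Aa, H2-Eb1 and H2-Eb2), and the genotypes overlapped in H2-Oa and H2-Eb2. The Y box was also found for 8 of 12 M region genes. Stretches of 3 class II genes are shown because class II had the largest median difference of the 3 classes. They are on GRCm38.p6 and read 5′ to 3′ as before. Capitals mark the Y box, here on the gene's strand, and in H2-DMb1 ATTGG.
H2-Aa, chr17:34287861-34287934, minus strand: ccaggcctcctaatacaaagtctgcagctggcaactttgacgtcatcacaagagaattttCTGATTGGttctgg
H2-Eb1, chr17:34305745-34305818, plus strand: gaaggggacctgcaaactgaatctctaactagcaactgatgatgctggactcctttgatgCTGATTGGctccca
H2-DMb1, chr17:34153070-34153140, plus strand: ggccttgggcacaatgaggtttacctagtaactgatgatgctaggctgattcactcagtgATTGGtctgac
H2-Aa and H2-Eb1 hold the full Y box and H2-DMb1 its core, and H2-DMa held ATTGG in 1 of its 2 windows.

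Of the 5 genes of peptide exchange, H2-DMa was the one called. H2-DMa (mm9 chr17:34272127-34276046, plus strand), the alpha chain of H2-DM, was at 57.8, 59.8 and 57.5 FPKM in Gdpd3+/+ and at 86.5, 90.2 and 104 FPKM in Gdpd3-/-. It was higher in all Gdpd3-/- libraries, with the highest value in replicate 7, and it rose by 0.68 on the log2 scale (95% interval 0.44 to 0.92, SE 0.10, adjusted p = 0.0368). The call was lost after TMM-type scaling (0.47, adjusted p = 0.0907), after quantile normalisation (0.51, adjusted p = 0.0970) and without the intensity trend (adjusted p = 0.144). It was also lost without Gdpd3-/- replicate 5 (adjusted p = 0.0573), where 84 of all genes were called higher and 103 lower, and without Gdpd3+/+ replicate 1, 2 or 3 (0.224, 0.205 and 0.233), where 0 to 8 were called higher and 0 to 13 lower. Its partner H2-DMb1 was at 38.0, 32.8 and 37.9 FPKM against 62.3, 53.3 and 38.2 FPKM, so that replicate 7, the highest in H2-DMa, was level with Gdpd3+/+ (0.47, SE 0.19, adjusted p = 0.208). Without replicate 7 the adjusted p of H2-DMb1 was 0.0275, where 2364 of 24056 genes were called higher. The ratio of H2-DMa to H2-DMb1 was 1.52 to 1.83 in Gdpd3+/+ and 1.39, 1.69 and 2.74 in Gdpd3-/- replicates 5, 6 and 7. H2-DMb2 overlapped at 5.62 to 5.80 against 5.23 to 8.20 FPKM, and 5.74% of the windows along H2-DMb1 are shared with it. The H2-O chains overlapped as well, H2-Oa at 8.41 to 11.5 against 9.38 to 14.9 FPKM and H2-Ob at 7.57, 8.58 and 8.57 against 17.2, 5.96 and 17.2 FPKM. H2-Ob thus stood far above Gdpd3+/+ in replicates 5 and 7 and below it in replicate 6, and without that replicate its adjusted p was 0.0312.

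**Figure D3:**
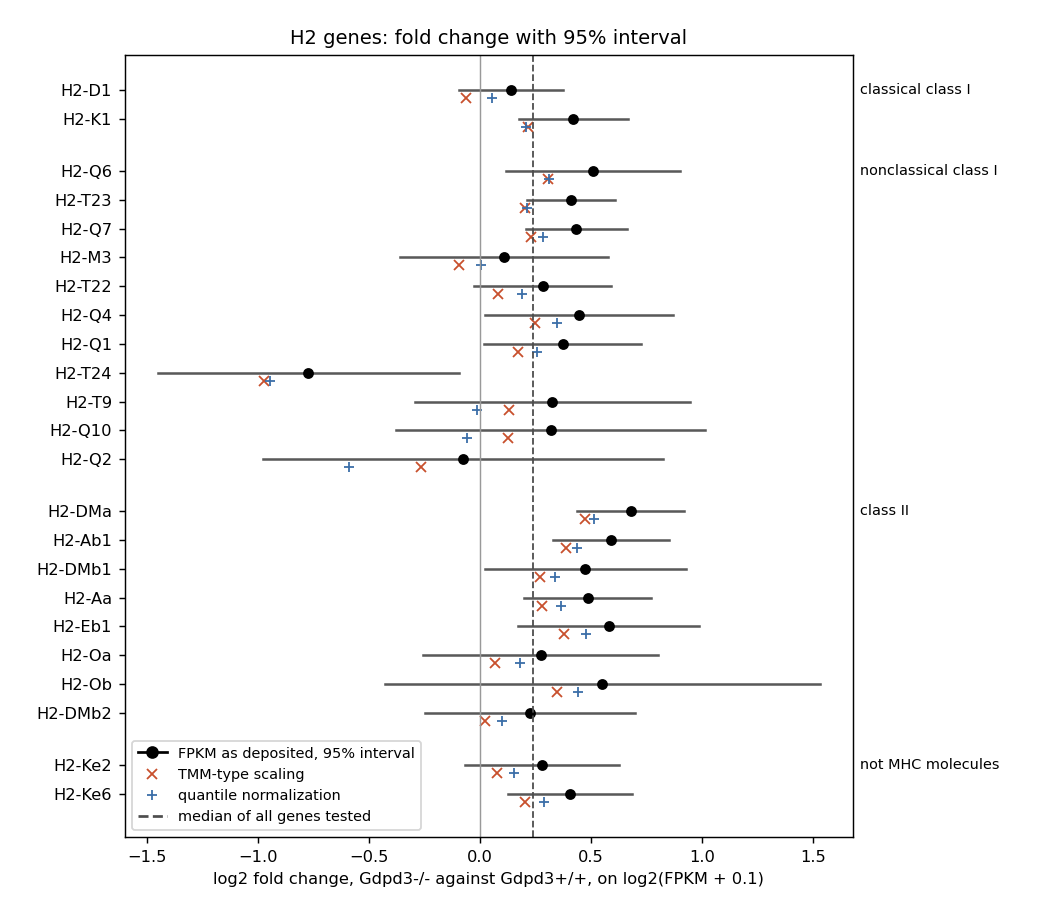
Log2 fold change of Gdpd3-/- against Gdpd3+/+ on log2(FPKM + 0.1) of the 23 H2 genes with a mean of at least 1 FPKM (points with 95% intervals, limma), with the values after TMM-type scaling (crosses) and quantile normalisation (plus signs) and the median of all genes tested, 0.24 (dashed line). The intervals of H2-DMa, 0.44 to 0.92, and H2-Ab1, 0.33 to 0.85, lie to the right of the dashed line, and the crosses of H2-D1 and H2-M3 lie left of 0.

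Ratios to H2-D1 within each library, chosen after the values were seen, set the H2 genes against each other without any scaling. Of 22 H2 genes compared in this way, 10 had a higher ratio in every Gdpd3-/- library, 1 a lower one (H2-T24) and 11 overlapped, where 18.4% of all 15102 other genes with a mean of at least 1 FPKM had a higher ratio in this way and 15.9% a lower one. The lower ratio of H2-T24 follows from the values above, as H2-T24 was lower and H2-D1 higher in every Gdpd3-/- library. The 10 were H2-K1, H2-DMa, H2-Ab1, H2-Aa, H2-Eb1, H2-Q1, H2-Q4, H2-Q6, H2-Q7 and H2-T23. For H2-DMa the ratio was 0.0817, 0.0795 and 0.0753 in Gdpd3+/+ and 0.103, 0.115 and 0.127 in Gdpd3-/-. H2-Ab1 stood at 0.0632, 0.0620 and 0.0595 of H2-D1 against 0.0870, 0.0934 and 0.0733. Over the 10, the ratio of the genotype means ran from 1.18 for H2-Q1 to 1.46 for H2-DMa.

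**Figure D4:**
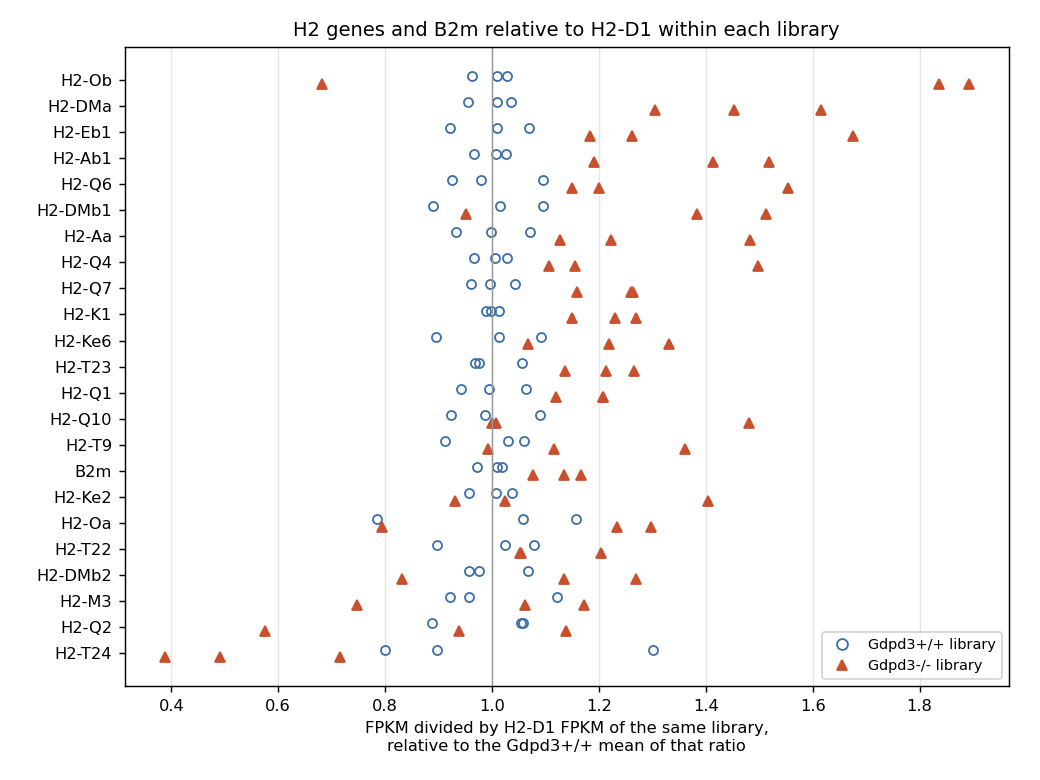
FPKM of each H2 gene and of B2m divided by the H2-D1 FPKM of the same library, as a multiple of the Gdpd3+/+ mean of that ratio, in Gdpd3+/+ (open circles) and Gdpd3-/- libraries (triangles), ordered by the ratio of the genotype means. All triangles lie right of all circles in H2-DMa, H2-Ab1 and H2-K1 and left of them in H2-T24.

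The class I pathway was described by 14 genes found in the table. Of these, 2 were called higher and 0 lower by limma, beside 1.09% and 0.616% of all genes tested. At an unadjusted p under 0.05, 5 were higher and 2 lower (16.5% and 5.76% of all genes). Both called genes are immunoproteasome subunits, which replace proteasome subunits and alter the peptides made for class I. Psmb10 was at 57.8, 60.04 and 57.8 FPKM in Gdpd3+/+ and at 92.6, 103 and 94.5 FPKM in Gdpd3-/-, and Psmb8 was at 77.8, 81.4 and 75.5 FPKM against 118, 111 and 111 FPKM. They rose by 0.72 (SE 0.09, adjusted p = 0.0255) and 0.53 (SE 0.08, adjusted p = 0.0417) on the log2 scale, and neither had overlapping groups. Under TMM-type scaling their adjusted p was 0.0543 and 0.106, and without Gdpd3+/+ replicate 1, 2 or 3 it lay between 0.162 and 0.247, while without Gdpd3-/- replicate 5 it was 0.0447 and 0.06997. Without the intensity trend it was 0.119 and 0.168, and for Psmb8 it was also above 0.05 after quantile normalisation (0.117) and with array weights (0.0872), so that Psmb10 was called in 10 and Psmb8 in 7 of the 15 alternatives. The proteasome activators Psme1 (105, 109 and 105 against 155, 149 and 140 FPKM, adjusted p = 0.0519) and Psme2 (71.4, 69.8 and 73.0 against 81.2, 105 and 95.4 FPKM, adjusted p = 0.121) lay above Gdpd3+/+ in all 3 libraries.

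B2m, the light chain of class I, was the most abundant of these transcripts. It was at 2476, 2528 and 2695 FPKM in Gdpd3+/+ and at 3307, 2938 and 3311 FPKM in Gdpd3-/-, with no overlap (0.31, SE 0.13, adjusted p = 0.234). Per B2m transcript, H2-K1 was at 0.191 to 0.203 in Gdpd3+/+ and 0.210 to 0.214 in Gdpd3-/-, and H2-D1 at 0.283 to 0.297 and 0.247 to 0.268. The peptide transporter Tap2 stood at 24.03, 26.3 and 23.6 against 29.2, 44.1 and 37.1 FPKM (adjusted p = 0.117), while Tap1 overlapped at 21.9 to 26.8 against 21.3 to 34.5 FPKM. Tapbp (tapasin) was at 76.2 to 79.8 against 84.9 to 94.5 FPKM. Among the general chaperones of the loading complex, Pdia3 was at 245, 240.0 and 250.0 FPKM in Gdpd3+/+ and at 165, 163 and 230.3 FPKM in Gdpd3-/- (adjusted p = 0.172), and Calr and Canx overlapped, with replicate 7 again nearest to Gdpd3+/+. Nlrc5, the class I transactivator, was at 3.71, 4.25 and 4.30 FPKM against 7.47, 3.72 and 7.87 FPKM (adjusted p = 0.337), high in replicates 5 and 7 and level with Gdpd3+/+ in replicate 6.

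Of the 10 other genes of the class II pathway, 0 were called in either direction. At an unadjusted p under 0.05, 3 were higher and 3 lower (16.5% and 5.76% of all genes). Cd74, the invariant chain, which binds class II dimers as they form, was at 290, 268 and 290 FPKM in Gdpd3+/+ and at 252, 211 and 224 FPKM in Gdpd3-/-. Its groups did not overlap and its difference had the opposite sign to those of the class II chains (-0.31, SE 0.10, adjusted p = 0.149). Within a library, H2-Ab1 was at 0.154, 0.174 and 0.157 of Cd74 in Gdpd3+/+ and at 0.291, 0.348 and 0.269 in Gdpd3-/-, a ratio of means of 1.87. H2-DMa was at 0.198 to 0.223 of Cd74 against 0.344 to 0.466, a ratio of 1.99. Since the genes and Cd74 each had groups apart in opposite directions, the separation of these ratios adds nothing to them.

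Ciita, the class II transactivator, was near the detection floor at 0.267, 0.334 and 0.539 FPKM in Gdpd3+/+ and 0.906, 1.57 and 0.596 FPKM in Gdpd3-/-. It was higher in all Gdpd3-/- libraries, with replicate 7 close to Gdpd3+/+, and did not pass the test (1.17, SE 0.49, adjusted p = 0.223). March1, the ubiquitin ligase that removes class II from the surface, stood at 0.918, 0.431 and 0.688 FPKM against 0.186, 0.115 and 0.372 FPKM (adjusted p = 0.206). Of the endosomal enzymes, Lgmn was at 7.17 to 9.16 against 4.61 to 5.91 FPKM and Ifi30 at 17.6 to 19.7 against 22.4 to 25.8 FPKM, whereas Ctss and Ctsl overlapped. Rfxank, a subunit of the factor that binds class II promoters, was at 7.30 to 8.27 against 8.43 to 10.7 FPKM, and the other subunits Rfx5 and Rfxap overlapped.

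**Figure D5:**
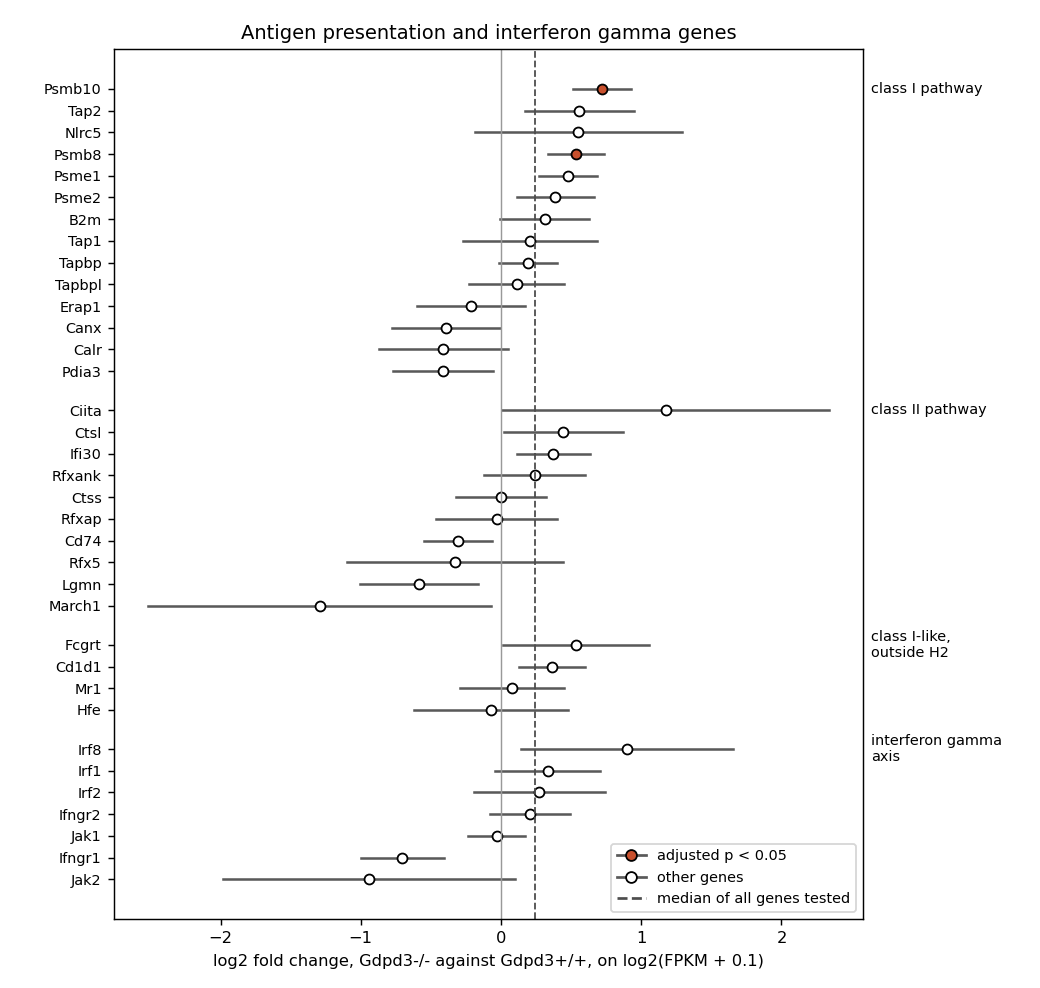
Log2 fold change of Gdpd3-/- against Gdpd3+/+ on log2(FPKM + 0.1), with 95% intervals (limma), of genes of the class I pathway, the class II pathway, class I-like molecules encoded outside the H2 complex and the interferon gamma axis. Filled points mark Psmb10 and Psmb8, with adjusted p of 0.0255 and 0.0417, and the dashed line is the median of all genes tested, 0.24.

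The 4 class I-like genes outside the complex gave no call by limma, with 2 higher at an unadjusted p under 0.05 (16.5% of all genes). Cd1d1, which presents lipids, was at 31.0, 28.6 and 28.8 FPKM in Gdpd3+/+ and at 38.8, 39.8 and 35.3 FPKM in Gdpd3-/- (0.36, SE 0.10, adjusted p = 0.101), and Mr1, Fcgrt and Hfe overlapped. Of the 7 genes reported of the interferon gamma axis, 0 were called. Without adjustment, 1 was higher and 1 lower at p under 0.05 (16.5% and 5.76% of all genes). Ifngr1, the ligand-binding chain of the interferon gamma receptor, was at 136, 138 and 141 FPKM in Gdpd3+/+ and at 74.5, 100.3 and 81.9 FPKM in Gdpd3-/- (-0.70, SE 0.12, adjusted p = 0.0514). Of the kinases of the receptor, Jak2 was at 24.1 to 25.2 against 5.96 to 20.4 FPKM. Jak1 overlapped at 53.2 to 55.1 against 51.1 to 55.8 FPKM. Ifngr1 and Jak2 lay below Gdpd3+/+ in every Gdpd3-/- library, and Ifngr2 above it at 9.85 to 11.3 against 12.1 to 12.7 FPKM. Irf1 was at 25.3 to 31.8 against 32.7 to 43.9 FPKM (adjusted p = 0.267) and Irf8 at 1.90 to 2.19 against 3.02 to 6.13 FPKM (adjusted p = 0.168).

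Markers of the cells best known for class II were looked at in the same libraries. By limma 0 of the 7 B cell markers reported were called, where 1.09% of all genes were called higher and 0.616% lower. They summed to 69.7 to 75.5 FPKM in Gdpd3+/+ and 68.9 to 82.2 FPKM in Gdpd3-/-. The sum was held almost wholly by Cd79a (27.7 to 33.7 against 12.7 to 28.9 FPKM, overlapping) and Cd79b (39.5 to 39.9 against 50.2 to 58.7 FPKM). Cd79b and Ebf1 (0.0563 to 0.0836 against 0.0985 to 0.783 FPKM) lay above Gdpd3+/+ in all Gdpd3-/- libraries and Cd22 (0.354 to 0.587 against 0 to 0.240 FPKM) below it, and the other 4 overlapped. Of all genes, 23.5% lay above and 8.27% below in this way. The 10 dendritic cell and macrophage markers summed to 12.6 to 15.7 FPKM against 17.4 to 22.7 FPKM. Siglech and Batf3 lay above Gdpd3+/+ in all Gdpd3-/- libraries (23.5% of all genes). By limma 0 of the 10 were called, beside 1.09% higher and 0.616% lower of all genes. Gdpd3-/- replicate 6 had the largest dendritic cell and macrophage sum and was the highest of all 6 libraries in Cd209a (7.47 FPKM), Zbtb46 (3.60 FPKM) and Cd79b. Ms4a1, Pax5, Cd22, Itgax, Xcr1 and Clec9a were listed at 0 in it. It was the highest library in H2-Aa and, just above replicate 5, in H2-Ab1 (73.6 and 73.2 FPKM). The class II sum was highest in replicate 5 (307 FPKM, against 298 FPKM in replicate 6), and H2-DMa and H2-Eb1 were highest in replicate 7. Siglech was highest in replicate 7 (1.91 FPKM) and Batf3 in replicate 5 (3.49 FPKM). The 7 T cell markers summed to 2.32 to 3.41 against 0.917 to 3.26 FPKM. All 7 plasma cell markers and all 10 muscle markers had groups that did not overlap, lower and higher in Gdpd3-/- (8.27% and 23.5% of all genes). By limma 2 plasma cell markers were called lower, beside 0.616% of all genes, and 0 muscle markers were called. The 2 were Irf4 (adjusted p = 0.0275) and Mzb1 (adjusted p = 0.0484). The part of B cell, dendritic cell, muscle and plasma cell transcripts in the H2 values was not tested. Without Gdpd3-/- replicates 5 and 6, 5 H2 genes were called higher by limma (H2-Ab1, H2-DMa, H2-K1, H2-Ob and H2-T23), beside 8.42% of the 22510 genes tested in that fit, with replicate 7 as the lone Gdpd3-/- library assumed to vary like the others.

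The genes named for the complex alone lay on the same side. H2-Ke2, the prefoldin subunit Pfdn6, was at 32.7, 33.7 and 32.6 FPKM in Gdpd3+/+ and at 34.9, 49.3 and 37.4 FPKM in Gdpd3-/- (adjusted p = 0.303). H2-Ke6, a steroid dehydrogenase, was at 24.2, 23.8 and 21.4 FPKM against 32.0, 32.8 and 27.3 FPKM (adjusted p = 0.114), and 20.8% of its windows are shared with Gm20427. Their groups did not overlap as deposited, whereas their ratios to H2-D1 did. Across the complex, 26 of the 36 H2 genes share no window of 150 bases with another gene in the transcripts of GENCODE M21, and 2 share over 10% (H2-Ke6 and H2-T9). H2-K1, H2-DMa, H2-Ab1, H2-Aa, H2-Eb1 and H2-T24 are among the 26, and 1.79% of the windows of H2-D1 are shared with H2-Q1. These windows are exact matches in annotated transcripts and do not measure how reads that fit several genes were aligned or counted.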

How the data were processed

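RNA-Seq libraries of LT-CML stem cells (SMART-Seq v4, paired-end reads of 150 bases) were grouped by the genotype in their labels, 3 Gdpd3+/+ (replicates 1, 2 and 3) and 3 Gdpd3-/- (replicates 5, 6 and 7). The submitters' processing notes name Trimmomatic, Trim Galore, cutadapt 1.16, STAR 2.6.1a, featureCounts 1.6.1, DESeq2 and the genome build mm9. The authors deposited FPKM per gene, and a DESeq2 table of base means, log2 fold changes, standard errors, Wald statistics and p-values, which was not used here. No read counts per library were used, so no count model was run. FPKM times gene length came in whole steps per library (tolerance 0.001), and the inverse of the step gave depths of 2.13 to 6.28 in arbitrary units. What a step stands for was not given, so these depths compare libraries and count neither bases nor reads. FPKM spreads a library's reads over all genes, so a large gain in a few genes lowers the rest.

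The main test was limma 3.58.1 (R 4.3.3) with a trend of the variance on the mean level, on log2(FPKM + 0.1), for the 24689 genes whose mean reached 0.05 FPKM. Genotype was its single term. Its two-sided p-values were corrected (Benjamini-Hochberg) over all genes tested, and a gene under 0.05 was called. A fold change on this scale understates the change of low genes. Single genes were compared by exact permutation tests of mean FPKM over 20 assignments (SciPy 1.17.1). The 15 alternatives covered the pseudocount, the filter, 2 other scalings (TMM-type, trimming 30% of ratios and 5% of levels, and quantile), the trend, array weights and libraries left out.

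H2 genes with a mean of at least 1 FPKM or an adjusted p under 0.05 were named, as were pathway genes that were called or did not overlap and B2m, Tap1, Nlrc5, Cd74, Ciita and Irf1. The members, lists and markers were chosen with earlier results of these data known. Of 82 listed genes 81 were found by name or gene identifier, all but Psmb9, and some genes of the lists are not reported here. Promoters were read from RefSeq (GRCm38.p6) and shared windows of 150 bases from GENCODE M21 transcripts, and mm9 positions are those of the deposited table.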

Additional observations from a re-analysis of the deposited data

Results flagged for a closer look

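H2 rows that the table does not type as protein coding were left out of the comparisons above. Of these 6 rows, 3 had every Gdpd3-/- library above every Gdpd3+/+ library, where 23.5% of all genes did so. H2-Q8 and H2-Ea-ps kept this after TMM-type scaling (15% of all genes) and quantile normalisation (13.6%), whereas H2-T10 overlapped under both. H2-Q8 (processed transcript, now H2-Q5), a Q region class I gene, was at 29.2, 32.2 and 29.8 FPKM in Gdpd3+/+ and at 48.1, 43.8 and 37.6 FPKM in Gdpd3-/-, with a mean of 43.2 FPKM (limma, adjusted p = 0.0868). H2-T10 (polymorphic pseudogene) was at 1.78, 1.41 and 1.09 FPKM against 2.86, 8.13 and 1.95 FPKM, with a mean of 4.31 FPKM that rests mostly on replicate 6 (adjusted p = 0.220). H2-Ea-ps (pseudogene), the defective I-E alpha gene, was listed at 0, 0.122 and 0 FPKM in Gdpd3+/+ and at 1.08, 0.632 and 0.305 FPKM in Gdpd3-/-, with a mean of 0.672 FPKM (adjusted p = 0.0931). Its values are near the floor. In whole steps of FPKM times gene length, Gdpd3+/+ replicate 2 and Gdpd3-/- replicate 7 both stood at 800. These 2 libraries are thus set apart in H2-Ea-ps only by the lower depth of replicate 7. The other 3, H2-K2, H2-Bl and H2-M6-ps, overlapped.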

How the results depend on the processing

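No paired analysis was possible because the replicate numbers of the genotypes differ (1, 2 and 3 against 5, 6 and 7). Where 1 H2 gene was called higher, 3 were called over genes of a mean of at least 1 FPKM, 0 under TMM-type scaling, quantile normalisation or no intensity trend, 5 without both Gdpd3-/- replicates 5 and 6, and 0 to 6 without a single library (6 without Gdpd3-/- replicate 7). Of all genes, 270 of 24689 were called higher, 471 of 15103 at a mean of at least 1 FPKM, 1896 of 22510 without both replicates and 2364 of 24056 without replicate 7. The median of classical class I moved from 0.28 to 0.075 under TMM-type scaling and to 0.13 under quantile normalisation. That of nonclassical class I moved from 0.30 to 0.13 and 0.054 under these and to 0.077 with no filter, and lay between 0.20 (without Gdpd3-/- replicate 5) and 0.41 (without 6) without a single library. The class II median lay between 0.45 and 0.58 without a single library and at 0.28 under TMM-type scaling, 0.22 above that of all genes. Signs turned for H2-D1 (-0.066) and H2-M3 (-0.095) under TMM-type scaling, H2-Q10 (-0.057) and H2-T9 (-0.013) under quantile normalisation, and H2-Q2 (0.31) and H2-DMb2 (-0.12) without both replicates 5 and 6. Without a single library, H2-Q2 ranged from -0.27 (without Gdpd3-/- replicate 7) to 0.20 (without 6) and H2-M3 from -0.026 (without 7) to 0.33 (without 6). Of 464 single-gene values in alternatives, 424 kept direction and side of the threshold. Most of these genes were not called in the main fit, so keeping the side mostly meant staying uncalled. The calls of H2-DMa, Psmb10 and Psmb8 held in 8, 10 and 7 of the 15 alternatives. The cause of these changes was not tested. The lower depth of Gdpd3-/- libraries limits H2 genes under 1 FPKM most.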
